A study of Mus musculus with 14 samples.

Results

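The genes described here are 39 genes of DNA replication and S phase, chosen by symbol from the 55335 genes counted in each of the 2 deposited tables. Each symbol had 1 entry in each table, and all 39 passed the filter on low counts in both, where 17364 and 16807 genes were tested. They were followed in RNA of mouse intestinal stem cells from 14 libraries. Chronic stress and the ageing of these stem cells are the subject of the series title.

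Mice of the Chrm3 experiment carried Lgr5CreERT2-IRES-GFP, which puts a tamoxifen-activated Cre recombinase and GFP under the Lgr5 locus, together with floxed Chrm3, the gene of the M3 muscarinic acetylcholine receptor. KO mice were injected with tamoxifen (TAM), which removes the floxed segment in Lgr5-expressing cells, and WT mice with vehicle, for 3 days before the ES modelling. Genotype and injection therefore differ together between KO and WT. The groups were KO ES, KO NT, WT ES and WT NT, with 2 libraries each. ES marks the mice given the modelling and NT those without it, names that the labels do not spell out, and no age is given. In the second experiment old mice of 18 months and young mice of 2 months carried Lgr5CreERT2-IRES-GFP, with no Chrm3 allele named, and gave 3 libraries each. All cells were sorted for EGFP from the Lgr5 locus. Whether a library is 1 animal or a pool is not stated, so the p-values reflect library spread, which may be technical.

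Before an S phase, the origin recognition complex with Cdc6 and Cdt1 loads the ring-shaped Mcm2 to Mcm7 helicase onto DNA, a step called licensing. Cyclin E and the E2f factors start S phase, Cdc45 and the GINS complex join the helicase, and DNA polymerases copy the strands with the sliding clamp Pcna, which the Rfc complex loads. Most Lgr5-expressing cells at the crypt base are dividing, so these transcripts are part of their ordinary expression.

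Depth was 26683563 to 36882310 counts per library in the Chrm3 experiment and 32366366 to 35804988 in the ageing experiment. A replication gene held between 246 counts (Gins3) and 12022 counts (Mcm6) in a library. Chrm3 was still counted in KO libraries. It had 256 and 213 counts in KO ES, 343 and 254 in KO NT, 357 and 291 in WT ES, and 355 and 386 in WT NT. Its log2 fold change of KO against WT was -0.68 ± 0.17 (adjusted p = 0.0363) in ES and -0.50 ± 0.16 (adjusted p = 0.119) in NT. The 6 stem cell markers were counted in every library, as were goblet, Paneth, enterocyte, enteroendocrine and tuft markers. Lymphocyte and other blood cell markers summed to 54.2 to 217.5 CPM (counts scaled to library depth), and stromal markers to at most 9.25 CPM. Adjusted p-values below are from edgeR's quasi-likelihood test with the Benjamini-Hochberg adjustment over all tested genes, ± after a log2 fold change is its standard error, and a gene is said to have risen or fallen where the adjusted p is under 0.05.

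Levels per kilobase use the merged exons of all annotated transcripts of a gene, which can be longer than any single transcript. By this measure Pcna had the highest level of the 39 genes. It had 102 CPM per kilobase in the Chrm3 experiment and 96.3 in the ageing experiment. The helicase subunits Mcm6 (67.3 and 65.4) and Mcm7 (49.2 and 44.7) and Uhrf1 (47.1 and 46.4 CPM per kilobase) followed. The lowest levels per kilobase were those of Orc1 (4.83 and 4.74), the primase subunit Prim2 (4.64 and 4.23) and the GINS subunit Gins3 (3.95 CPM per kilobase in the Chrm3 experiment). Of the 39 genes, 16 passed the test in at least 1 of 6 comparisons, 4 of them in more than 1, and 23 passed in none. The 23 were the licensing genes Mcm3, Cdt1 and Orc6, the firing genes Mcm10, Gins1, Gins3 and Gins4, all 6 polymerase and primase genes (Pola1, Pola2, Prim1, Prim2, Pold1 and Pole), the clamp group genes Pcna, Rfc2, Rfc3, Rfc4, Rfc5, Rpa2 and Fen1, and Rrm2, Ccne2 and E2f1.

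**Figure D1:**
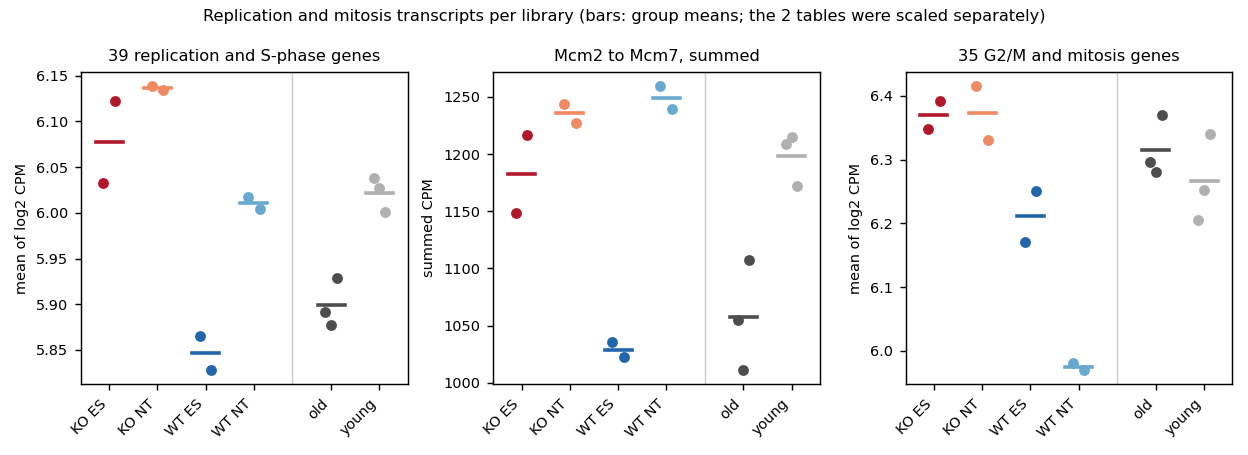
Each point is 1 library and each bar the mean of its group, for the mean log2 CPM of the 39 genes (left), the summed CPM of Mcm2 to Mcm7 (middle) and the mean log2 CPM of 35 G2/M and mitosis genes (right). WT ES lies below WT NT and old below young in the left and middle panels. In the right panel WT ES lies above WT NT.

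The mean log2 CPM of the 39 genes was 6.03 and 6.12 in KO ES, 6.14 and 6.13 in KO NT, 5.86 and 5.83 in WT ES and 6.02 and 6.004 in WT NT. It was 5.89, 5.88 and 5.93 in old cells, against 6.04, 6.03 and 6.001 in young cells. Both WT ES libraries lay below the other 6 of their experiment, and the old and young libraries did not overlap, as the plot of the mean level by library shows.

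ES was first compared with NT in WT cells. The genes that fell were mostly those of origin licensing. Of the 39 genes, 6 fell and 0 rose with ES, against 1.39% and 2.1% of all tested genes that fell and rose. At an unadjusted p under 0.05 there were 16, against 18.6% of all tested genes. DESeq2 called 11 lower and 0 higher, against 3.07% and 4.96% of the genes to which it gave an adjusted p. The log2 fold change was below 0 for 32 of the 39 genes (50.7% of all tested genes), with a range of -0.56 to 0.10 and a median of -0.13, against -0.00341 over all tested genes. Both WT ES libraries lay below both WT NT libraries for 26 of the 39 genes, as they did for 26.9% of all tested genes.

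By role, all 10 licensing genes had a log2 fold change below 0 and 5 of them fell, with a median of -0.28. The 4 genes of G1/S control and methylation copying had a median of -0.34 and none passed. The 9 genes of the clamp, its loader, single-strand binding and ligation were all below 0, with a median of -0.13 and none passing. The 6 genes of origin firing had a median of 0.03, and 4 of them lay above 0. The difference between the roles was not tested.

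Promoters of 4 licensing genes that fell are shown here, 3 that hold an E2F-type word and 1 that holds none. The sequences are RefSeq's on GRCm38.p6 and run from 250 bases before to 50 after the annotated start, with capitals marking the words. The words searched were TTTCCCGC, TTTGGCGC, TTTCGCGC and TTTGCCGC on both strands, overlapping matches included. In Orc1 (chr4:108579204-108579503, plus strand) a word begins at -27 from the start base. In Mcm6 (chr1:128359656-128359955, minus strand) the words begin at -110 and -106, which overlap, and at -47. In Mcm7 (chr5:138171834-138172133, minus strand) they begin at -165 and 16, and Mcm2 (chr6:88898731-88899030, minus strand) holds none. The first listed start of each gene was taken. The Mcm7 window lies wholly inside the gene as GENCODE places it (138164583 to 138172422), so the RefSeq and GENCODE starts differ.
Orc1: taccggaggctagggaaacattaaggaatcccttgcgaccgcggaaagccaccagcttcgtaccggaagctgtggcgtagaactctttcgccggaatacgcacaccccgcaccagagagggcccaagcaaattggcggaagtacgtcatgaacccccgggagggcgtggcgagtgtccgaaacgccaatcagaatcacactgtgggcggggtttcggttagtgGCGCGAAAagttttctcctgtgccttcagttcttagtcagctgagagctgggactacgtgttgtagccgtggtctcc
Mcm6: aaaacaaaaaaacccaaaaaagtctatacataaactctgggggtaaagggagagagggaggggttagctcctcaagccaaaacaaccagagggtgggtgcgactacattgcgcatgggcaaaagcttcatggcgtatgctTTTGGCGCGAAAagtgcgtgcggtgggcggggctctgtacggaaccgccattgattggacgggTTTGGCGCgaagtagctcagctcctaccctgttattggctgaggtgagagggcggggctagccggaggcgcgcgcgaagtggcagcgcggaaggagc
Mcm7: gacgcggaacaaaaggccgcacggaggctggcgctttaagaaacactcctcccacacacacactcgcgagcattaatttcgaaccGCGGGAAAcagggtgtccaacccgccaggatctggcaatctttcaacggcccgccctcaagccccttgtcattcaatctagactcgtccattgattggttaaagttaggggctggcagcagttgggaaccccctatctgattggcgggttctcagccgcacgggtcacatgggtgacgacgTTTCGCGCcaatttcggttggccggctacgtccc
Mcm2: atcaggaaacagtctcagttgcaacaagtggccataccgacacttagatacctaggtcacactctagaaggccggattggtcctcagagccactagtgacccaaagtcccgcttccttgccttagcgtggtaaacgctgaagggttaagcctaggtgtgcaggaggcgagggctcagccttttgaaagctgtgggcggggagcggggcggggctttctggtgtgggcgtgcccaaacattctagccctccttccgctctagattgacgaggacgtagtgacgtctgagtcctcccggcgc

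A promoter was listed for 31 of the 39 genes, and 11 of these (35.5%) held a word, against 3.45% of 29 promoters of G2/M and mitosis genes and 2.32% of 27025 promoters in all. Words were found in 7 of 9 licensing promoters and in 4 of 22 promoters of the other roles. A match describes letters in this window and does not show that a factor binds there.

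Orc1 (GRCm38 chromosome 4, 108579423 to 108614833), the largest subunit of the origin recognition complex, had 13.3 and 13.02 CPM in WT ES, against 20.7 and 18.1 CPM in WT NT (log2 fold change -0.56 ± 0.10, adjusted p = 0.0186). Both WT ES libraries were lower than any other library of that experiment. KO cells had 17.01 and 17.3 CPM in ES and 17.4 and 17.7 CPM in NT, between the WT groups. Exons of Orc1 overlap the predicted gene Gm12743 on the opposite strand.

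Mcm4 (GRCm38 chromosome 16, 15623897 to 15637400), a subunit of the helicase ring, had 132 and 133 CPM in WT ES, against 172 and 171 CPM in WT NT (log2 fold change -0.37 ± 0.06, adjusted p = 0.0106). Mcm2 (GRCm38 chromosome 6, 88883474 to 88898780), another subunit, had 139 and 133 CPM in WT ES, against 169 and 172 CPM in WT NT (log2 fold change -0.32 ± 0.06, adjusted p = 0.0222). Neither gene's groups overlapped, and the 2 libraries of a group lay close together beside the gap between the groups. Mcm7 (GRCm38 chromosome 5, 138164583 to 138172422) had 189.8 and 186 CPM in WT ES, against 236 and 221 CPM in WT NT (log2 fold change -0.28 ± 0.07, adjusted p = 0.0481). Its exons overlap the microRNA genes Mir25 and Mir93 on the same strand, and Ap4m1 and Cops6 on the opposite one. Mcm6 (GRCm38 chromosome 1, 128331590 to 128359664) had 286 and 279.8 CPM in WT ES, against 337 and 335 CPM in WT NT (log2 fold change -0.25 ± 0.05, adjusted p = 0.0307). The remaining ring subunits missed the threshold, with log2 fold changes of -0.28 ± 0.07 (adjusted p = 0.0506) for Mcm3 and -0.22 ± 0.06 (adjusted p = 0.0817) for Mcm5, and WT ES lay below WT NT for both.

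Summed over Mcm2 to Mcm7, the level was 1036 and 1022 CPM in WT ES, against 1259 and 1239 CPM in WT NT. The loading factor Cdt1 had 62.9 and 66.5 CPM in WT ES, against 79.01 and 84.6 CPM in WT NT, without passing the test (log2 fold change -0.34 ± 0.09, adjusted p = 0.0646). Its partner Cdc6 had 36.3 and 30.2 CPM in WT ES, against 42.4 and 38.6 CPM in WT NT (log2 fold change -0.28 ± 0.11, adjusted p = 0.212). The groups did not overlap for either gene.

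Ung (GRCm38 chromosome 5, 114130386 to 114139323), the glycosylase that removes uracil from DNA, had 39.8 and 42.5 CPM in WT ES, against 58.8 and 59.8 CPM in WT NT (log2 fold change -0.53 ± 0.09, adjusted p = 0.0123). It was the only one of the 6 fallen genes outside origin licensing. Rrm2, the regulated subunit of ribonucleotide reductase, had 74.4 and 67.01 CPM in WT ES, against 74.9 and 75.6 CPM in WT NT (log2 fold change -0.09 ± 0.09, adjusted p = 0.669). Tyms, thymidylate synthase, had the smallest p of the 7 genes above 0, with 65.99 and 64.5 CPM in WT ES, against 63.1 and 58.3 CPM in WT NT (log2 fold change 0.10 ± 0.08, adjusted p = 0.533). The WT ES libraries lay below WT NT for Rrm2 and above it for Tyms, by small margins.

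**Figure D2:**
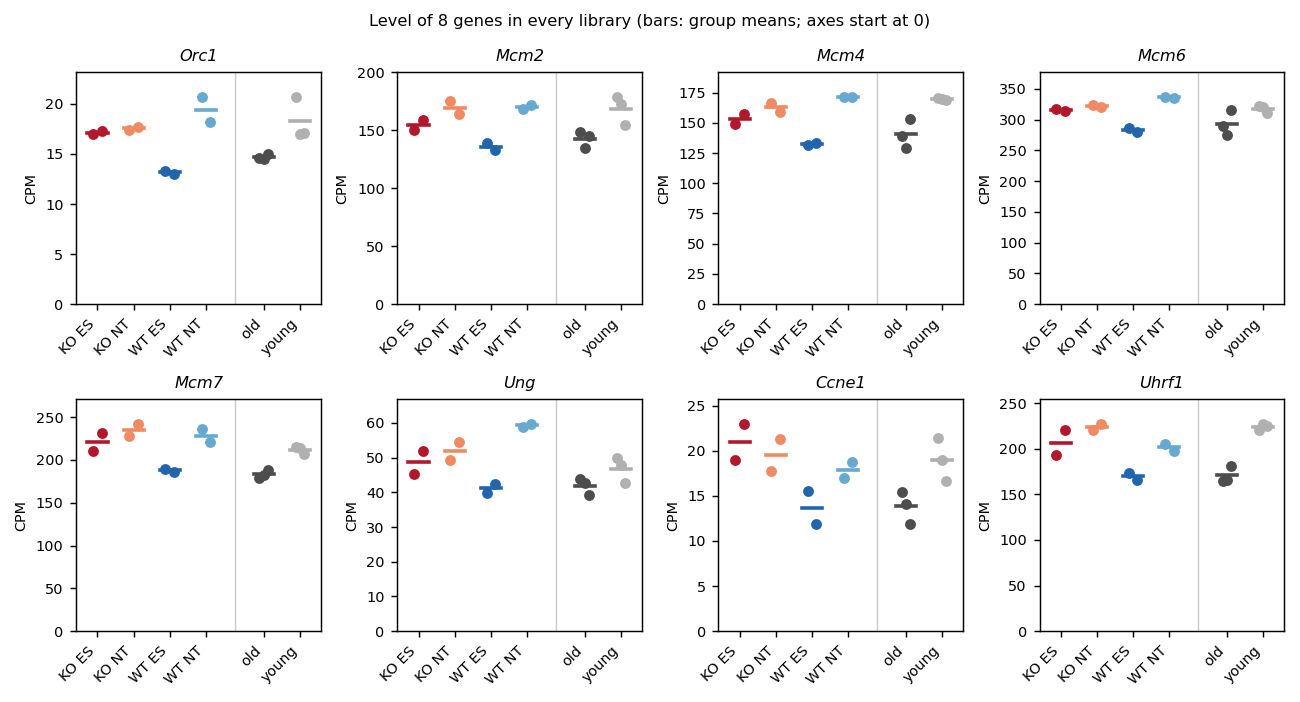
Each panel gives the CPM of 1 gene in every library, with the mean of each group as a bar and the axis starting at 0. WT ES lies below WT NT in all 8 panels, and all KO libraries of Orc1 lie between these groups. Orc1, Mcm2, Mcm4, Mcm7, Ccne1 and Uhrf1 are lower in all old than in all young libraries.

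Ccne1, which encodes cyclin E1, had 15.5 and 11.8 CPM in WT ES, against 16.9 and 18.7 CPM in WT NT (log2 fold change -0.37 ± 0.16, adjusted p = 0.228). E2f1, a transcription factor of S-phase entry, had 22.2 and 20.1 CPM in WT ES, against 28.4 and 28.1 CPM in WT NT (log2 fold change -0.41 ± 0.10, adjusted p = 0.0566). Uhrf1, which brings the maintenance DNA methyltransferase to newly copied DNA, had 174 and 166 CPM in WT ES, against 205 and 198 CPM in WT NT (log2 fold change -0.25 ± 0.07, adjusted p = 0.0845). None of these passed, although WT ES lay below WT NT in each. The sliding clamp Pcna had 218 and 218 CPM in WT ES, against 238 and 239 CPM in WT NT (log2 fold change -0.13 ± 0.07, adjusted p = 0.406), a small gap with no overlap. The pseudogene Pcna-ps2 held 7.09% of the reads counted for the pair in this experiment, so reads may be split between them.

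Other genes of these pathways were counted from lists, beside 1.39% of all tested genes that fell and 2.1% that rose. Of 39 further replication genes 2 fell and 0 rose, among them the mismatch repair gene Msh6 (log2 fold change -0.54 ± 0.07, adjusted p = 0.00448). Among 17 nucleotide supply genes 3 fell and 0 rose, Umps of pyrimidine synthesis (log2 fold change -0.38 ± 0.07) and Paics (-0.28 ± 0.06) and Gart (-0.26 ± 0.06) of purine synthesis. Of 13 genes of chromatin assembly and maintenance methylation, Cdca7 alone passed and fell (log2 fold change -0.51 ± 0.06). In G1/S control 2 of 29 genes fell, the cyclin gene Ccnd2 (-0.32 ± 0.05) and the kinase gene Cdk6 (-0.31 ± 0.06), and 0 rose. The G2/M and mitosis genes went the other way: 11 of 35 rose and 0 fell, with a median log2 fold change of 0.25. They included the spindle gene Nusap1 (0.41 ± 0.06), the mitotic kinase gene Plk1 (0.42 ± 0.07) and Cdc20 (0.34 ± 0.06), an activator of the anaphase-promoting complex.

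Mean log2 CPM of the 39 replication genes differed by -0.165 between WT ES and WT NT (ES minus NT), and that of the 35 mitosis genes by 0.236. The mitosis mean was lowest in WT NT (5.98), against 6.21 in WT ES, 6.37 in KO NT and 6.37 in KO ES. Every comparison with WT NT shares its 2 libraries, so a low value in them enters each. Mki67, a general marker of cycling cells, had a log2 fold change of -0.00 ± 0.10. Markers of other cell types moved with these genes. All 6 goblet cell markers rose, their sum being 9416 to 9646 CPM in WT ES and 4700 to 4808 CPM in WT NT. All 6 stem cell markers fell, with 10681 to 11042 CPM in WT ES and 13623 to 13927 CPM in WT NT. Of 6 enterocyte markers 1 rose, and their sum was 706.5 to 941 CPM in WT ES and 438.5 to 441 CPM in WT NT. Of 6 enteroendocrine markers 3 rose, at 234.6 to 241 CPM in WT ES against 134.6 to 147 CPM in WT NT, and of 6 Paneth cell markers 2 rose, at 9873 to 10524 CPM in WT ES against 8304 to 8366 CPM in WT NT. Their part in the lower replication transcripts was not tested, and in bulk RNA fewer cells of a type and less RNA per cell cannot be told apart. Over fits that left out each of the 8 libraries in turn, the median log2 fold change of the replication genes stayed between -0.161 and -0.114. Each such fit has a single library in 1 group that is assumed to vary like the others. The calls of the fallen genes were lost whenever a WT library was left out. The number of calls over all tested genes changed over these fits too.

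In KO cells ES gave no call among the 39 genes. By edgeR's quasi-likelihood test 0 rose and 0 fell, against 0.415% and 0.0979% of all tested genes, and DESeq2 gave 0 in each direction, against 0.875% and 0.426% of its genes. Only 1 gene had an unadjusted p under 0.05, against 8.6% of all tested genes. The log2 fold change was below 0 for 33 of 39 genes (50.6% of all tested genes), and the median was -0.07, against -0.00201 over all tested genes. The smallest p belonged to Mcm2, with 149.8 and 158 CPM in KO ES, against 175 and 164 CPM in KO NT (log2 fold change -0.14 ± 0.06, adjusted p = 0.573). Among genes above 0 it belonged to the clamp loader gene Rfc4, with 43.7 and 43.6 CPM in KO ES, against 41.7 and 42.00 CPM in KO NT (log2 fold change 0.06 ± 0.07, adjusted p = 0.915). The Mcm2 libraries of KO ES lay below those of KO NT.

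The licensing genes had a median log2 fold change of -0.05 with ES in KO cells, and 9 of 10 were below 0. Their Mcm2 to Mcm7 sum was 1148 and 1216 CPM in KO ES, against 1244 and 1228 CPM in KO NT, which did not overlap. KO ES lay wholly below KO NT for 10 of the 39 genes (16.1% of all tested genes) and wholly above for 2 (17.1%). Log2 fold changes of ES in KO were -0.07 ± 0.07 for Pcna, 0.00 ± 0.09 for Rrm2, 0.11 ± 0.14 for Ccne1 and -0.11 ± 0.07 for Uhrf1, none passing. Each of the 5 lists of related genes (replication, nucleotide supply, chromatin assembly, G1/S control, and G2/M and mitosis) had 0 calls in either direction by edgeR, with 1, 1, 0, 2 and 1 genes at an unadjusted p under 0.05. Of all tested genes 8.6% had such a p. Goblet cell markers rose in all 6 cases, summing to 4105 to 4151 CPM in KO ES and 2382 to 2498 CPM in KO NT. None of the 6 stem cell markers passed (median log2 fold change -0.11), and their sums overlapped, at 13650 to 14364 CPM in KO ES and 14191 to 15897 CPM in KO NT. Of 6 Paneth cell markers 2 rose, at 10462 to 10706 CPM in KO ES against 6655 to 8413 CPM in KO NT. Of 6 enterocyte markers 3 fell (median log2 fold change -1.22 over the 6), with sums of 317 to 421 CPM in KO ES and 402 to 771 CPM in KO NT that overlapped. Of 7 tested blood cell markers 1 rose, and no tuft or enteroendocrine marker passed. Their part in the result was not tested.

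Whether the effect of ES differed between KO and WT was tested for every gene, as the change in KO minus that in WT. None of the 39 genes passed by edgeR (0 higher and 0 lower, against 0.0115% and 0.0979% of all tested genes) or by DESeq2 (0 higher and 0 lower, against 0.368% and 1.07% of its genes), and 8 had an unadjusted p under 0.05, against 11.5% of all tested genes. The estimate was below 0 for 12 genes (48.3% of all tested genes) and above 0 for 27, including all 10 licensing genes, whose median was 0.22. Orc1 had the smallest p, with a difference of 0.53 ± 0.14 on the log2 scale (adjusted p = 0.192), followed by estimates of 0.44 ± 0.12 for Ung (adjusted p = 0.2) and 0.28 ± 0.08 for Mcm4 (adjusted p = 0.23). Of the genes below 0, Tyms had the smallest p (-0.20 ± 0.11, adjusted p = 0.521). The estimates were also 0.19 ± 0.09 for Mcm2, 0.06 ± 0.10 for Pcna, 0.09 ± 0.13 for Rrm2, 0.48 ± 0.21 for Ccne1 and 0.13 ± 0.10 for Uhrf1. Thus the calls with ES in WT and their lack in KO were not shown to be different effects of ES. The median estimate of the 39 genes lay between 0.0322 and 0.125 when each of the 8 libraries was left out in turn. Each such fit leaves a single library in 1 group. For the 35 mitosis genes the estimate was below 0 in 34, with a median of -0.24 and none passing by edgeR, although 20 had an unadjusted p under 0.05.

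KO was then compared with WT within each condition. In NT, 2 genes of origin firing and 2 of nucleotide supply rose in KO, and no licensing gene passed. Of the 39 genes 4 rose and 0 fell, against 2.36% and 2.11% of all tested genes. DESeq2 called 6 higher and 1 lower, against 3.8% and 2.94% of its genes, and 16 genes had an unadjusted p under 0.05, against 17.7% of all tested genes. The median log2 fold change was 0.13, against -0.0106 over all tested genes, and 7 genes were below 0 (52.2% of all tested genes). Both KO NT libraries lay above both WT NT libraries for 23 genes (22.7% of all tested genes), and below them for 6 (25.4%). The WT NT libraries also serve as the NT group of the ES comparison in WT.

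Tyms (GRCm38 chromosome 5, 30058202 to 30073617), which makes thymidylate, had 83.1 and 76.7 CPM in KO NT, against 63.1 and 58.3 CPM in WT NT (log2 fold change 0.40 ± 0.08, adjusted p = 0.0146). Rrm1 (GRCm38 chromosome 7, 102441695 to 102469771), the large subunit of ribonucleotide reductase, had 259.9 and 271 CPM in KO NT, against 213 and 207 CPM in WT NT (log2 fold change 0.34 ± 0.07, adjusted p = 0.0265). Both nucleotide supply genes were higher in each KO library than in either WT library. Cdc45 (GRCm38 chromosome 16, 18780447 to 18811987), which joins the helicase when origins fire, had 37.1 and 39.5 CPM in KO NT, against 30.2 and 29.8 CPM in WT NT (log2 fold change 0.35 ± 0.08, adjusted p = 0.0326). Gins2 (GRCm38 chromosome 8, 120578633 to 120589304), a subunit of the GINS complex, had 39.3 and 41.2 CPM in KO NT, against 31.98 and 31.1 CPM in WT NT (log2 fold change 0.35 ± 0.08, adjusted p = 0.0415). The libraries did not overlap for either. Exons of Cdc45 and Gins2 overlap Ufd1 and Gse1 on the opposite strand, and the sources used here do not state whether counting used the strand.

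All 6 firing genes had a log2 fold change above 0 in KO NT, with a median of 0.30, and so did all 6 polymerase and primase genes (median 0.15) and all 9 genes of the clamp group (median 0.14). The 10 licensing genes had a median of -0.03, 6 of them below 0. Cdt1 had the smallest p of the genes below 0, with 70.97 and 59.6 CPM in KO NT, against 79.01 and 84.6 CPM in WT NT (log2 fold change -0.32 ± 0.09, adjusted p = 0.0697). Its KO libraries were both lower than the WT libraries, yet it missed the threshold. Log2 fold changes for the genes followed throughout were -0.00 ± 0.06 for Mcm2, 0.18 ± 0.07 for Pcna, 0.11 ± 0.09 for Rrm2, 0.13 ± 0.15 for Ccne1 and 0.15 ± 0.07 for Uhrf1, none passing.

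**Figure D3:**
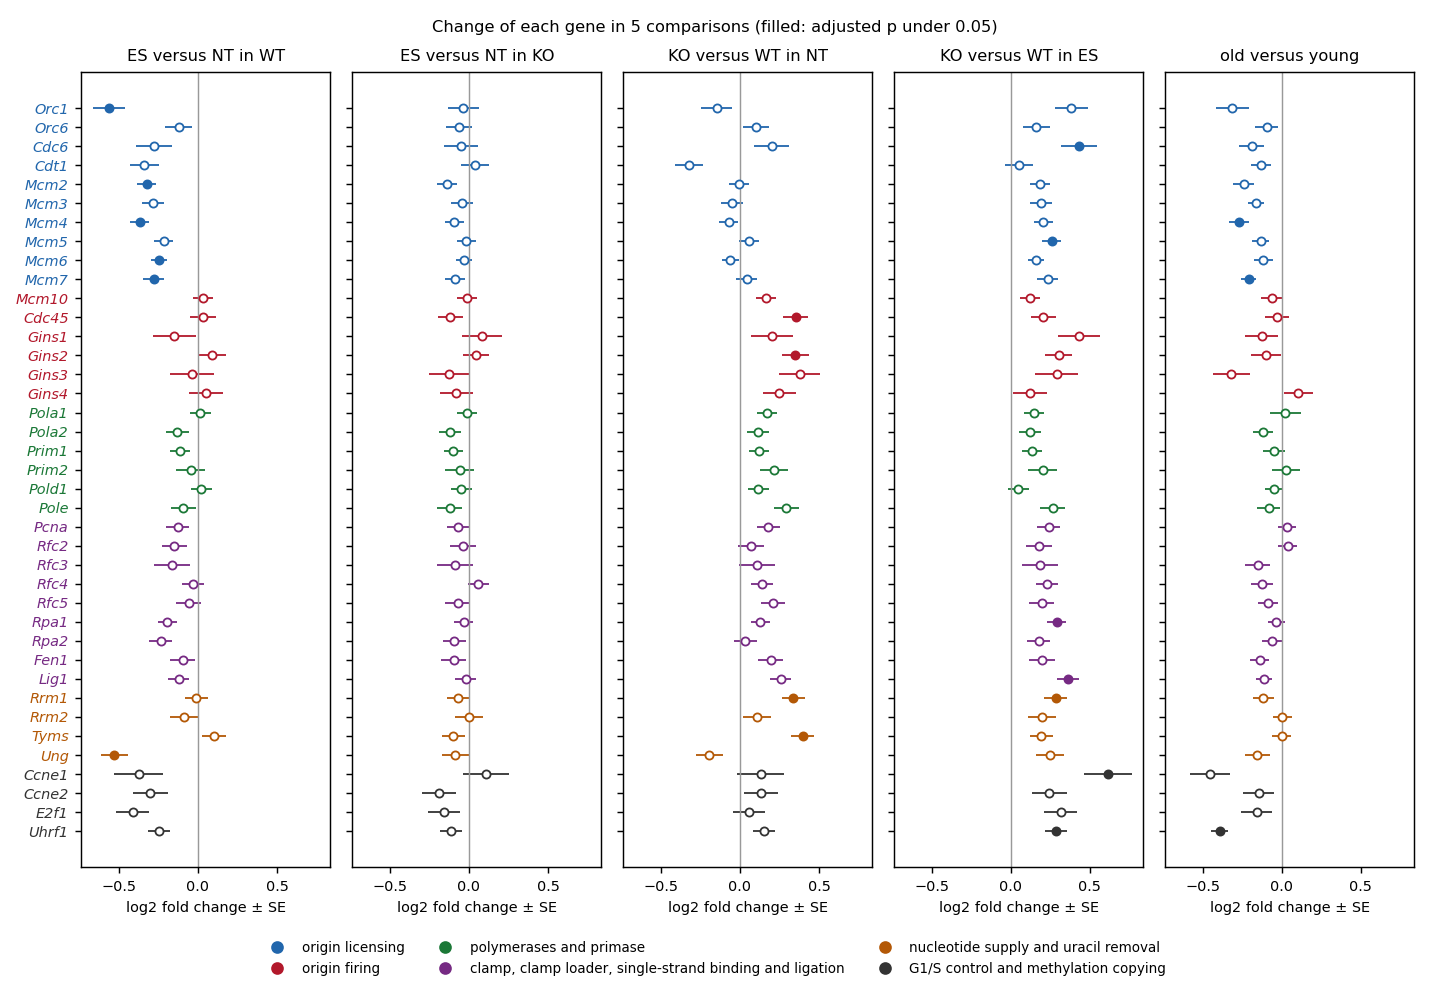
Each row is 1 gene, coloured by role, and each panel 1 comparison. Points give the log2 fold change with its standard error, filled where the adjusted p is under 0.05. The 10 licensing genes at the top lie left of 0 for ES in WT and for old, and right of 0 for KO against WT in ES.

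Among the related genes in NT, 25 of 35 mitosis genes rose in KO and 0 fell (median log2 fold change 0.40), including Nusap1 (0.51 ± 0.06), the spindle assembly factor gene Tpx2 (0.54 ± 0.06) and the checkpoint kinase gene Bub1 (0.58 ± 0.07). Of 39 further replication genes 4 rose, among them Pclaf, whose product binds Pcna (0.56 ± 0.07), Ticrr of origin firing (0.39 ± 0.09) and Dbf4 (0.30 ± 0.07), which activates the Cdc7 kinase. In the same list 2 fell, among them Msh6 (-0.42 ± 0.07). G1/S control had 4 risen genes of 29, including the atypical E2f genes E2f8 (0.43 ± 0.09) and E2f7 (0.44 ± 0.09) and Ccna2 (0.34 ± 0.07), with Ccnd2 (-0.39 ± 0.05) and Cdk6 (-0.24 ± 0.06) lower. Of 17 nucleotide supply genes the thymidine kinase gene Tk1 rose (0.34 ± 0.07) and 0 fell, and of 13 chromatin assembly genes Cdca7 fell (-0.29 ± 0.06) and 0 rose. Over all tested genes 2.36% rose and 2.11% fell.

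All 6 goblet cell markers were lower in KO NT, at 2382 to 2498 CPM in KO NT against 4700 to 4808 CPM in WT NT, as were all 6 tuft cell markers, at 28.9 to 36.8 CPM in KO NT against 76.5 to 79.1 CPM in WT NT. Of 6 markers each, 1 of Paneth cells, 1 of enteroendocrine cells and 1 of stem cells fell, and 1 of enterocytes rose. The second KO NT library also had the highest mitochondrial share of counts, 8.74%. The part of these in the result was not tested. The median log2 fold change of the replication genes stayed between 0.128 and 0.149 when each of the 8 libraries was left out in turn. Each such fit leaves a single library in 1 group. The calls of the risen genes were lost without either WT NT library. The number of calls over all tested genes changed over these fits too.

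In ES, all 39 genes had a log2 fold change above 0 for KO against WT, so 0 were below it (49.4% of all tested genes). Of them 7 rose and 0 fell, against 3.09% and 4.47% of all tested genes. DESeq2 called 11 higher and 0 lower, against 4.8% and 6.2% of its genes, and 26 genes had an unadjusted p under 0.05, against 22.9% of all tested genes. The median was 0.20, against 0.00392 over all tested genes. Both KO ES libraries lay above both WT ES libraries for 35 of 39 genes, as they did for 27% of all tested genes. This comparison shares its WT ES libraries with that of ES against NT in WT, so a low value in them enters both.

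Ccne1 (GRCm38 chromosome 7, 38097984 to 38107534) had 19.01 and 22.98 CPM in KO ES, against 15.5 and 11.8 CPM in WT ES (log2 fold change 0.61 ± 0.15, adjusted p = 0.0355). Cdc6 (GRCm38 chromosome 11, 98907801 to 98923940), the helicase loader, had 40.6 and 49.1 CPM in KO ES, against 36.3 and 30.2 CPM in WT ES (log2 fold change 0.43 ± 0.11, adjusted p = 0.0433). The KO libraries of both genes were above the WT libraries, with a wide gap between replicates. Lig1 (GRCm38 chromosome 7, 13277283 to 13311433), the ligase that seals Okazaki fragments, had 164 and 185 CPM in KO ES, against 139 and 133 CPM in WT ES (log2 fold change 0.36 ± 0.07, adjusted p = 0.0111). Rpa1 (GRCm38 chromosome 11, 75298166 to 75348324), the large subunit of the single-strand binding complex, had 117 and 119 CPM in KO ES, against 98.9 and 93.7 CPM in WT ES (log2 fold change 0.29 ± 0.06, adjusted p = 0.0163). The groups did not overlap for either, and exons of Lig1 overlap Zswim9 on the opposite strand and those of Rpa1 the predicted gene Gm47300 on the same strand.

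Uhrf1 (GRCm38 chromosome 17, 56303321 to 56323486) had 193 and 221 CPM in KO ES, against 174 and 166 CPM in WT ES (log2 fold change 0.28 ± 0.07, adjusted p = 0.0353). Rrm1 had 235 and 272 CPM in KO ES, against 214 and 203 CPM in WT ES (log2 fold change 0.28 ± 0.07, adjusted p = 0.0413). Mcm5 (GRCm38 chromosome 8, 75109569 to 75128439), a ring subunit of the helicase, had 183 and 198 CPM in KO ES, against 159 and 159.9 CPM in WT ES (log2 fold change 0.26 ± 0.06, adjusted p = 0.0297). None of the groups overlapped. Mcm2 (0.18 ± 0.06), Pcna (0.24 ± 0.07) and Rrm2 (0.20 ± 0.09) had positive log2 fold changes that did not pass. By role the medians were 0.20 for licensing, 0.25 for firing, 0.14 for polymerases and primase, 0.20 for the clamp group, 0.22 for nucleotide supply and uracil removal, and 0.30 for G1/S control and methylation copying.

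Of the related lists in ES, chromatin assembly and maintenance methylation had 7 of 13 genes risen in KO and 0 fallen, including the histone chaperone genes Rbbp7 (log2 fold change 0.28 ± 0.05), Asf1a (0.43 ± 0.08) and Nasp (0.37 ± 0.07). Of 39 replication genes 4 rose and 0 fell, including Pclaf (0.33 ± 0.07), the nuclease gene Dna2 (0.30 ± 0.07) and Wdhd1 (0.32 ± 0.08), which links helicase and polymerase. In the other lists 1 gene each rose and 0 fell: Gart (0.24 ± 0.06), E2f7 (0.38 ± 0.09) and, of 35 mitosis genes, Tpx2 (0.26 ± 0.06). Over all tested genes 3.09% rose and 4.47% fell, and these single calls lay near the share that rose.

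Goblet cell markers fell in all 6 cases, at 4105 to 4151 CPM in KO ES against 9416 to 9646 CPM in WT ES, and 5 of 6 enterocyte markers fell, at 317 to 421 CPM in KO ES against 706.5 to 941 CPM in WT ES. Stem cell markers summed to 13650 to 14364 CPM in KO ES, against 10681 to 11042 CPM in WT ES, and 3 of 6 rose. Of 6 enteroendocrine markers 5 fell, at 138 to 145 CPM in KO ES against 234.6 to 241 CPM in WT ES, and of 6 tuft cell markers 4 fell, at 41.7 to 46.03 CPM in KO ES against 84.5 to 85.2 CPM in WT ES. Of 6 Paneth cell markers 1 fell. Their part in the higher replication transcripts was not tested. With each of the 8 libraries left out in turn, the median log2 fold change of the replication genes stayed between 0.174 and 0.254. Each such fit leaves a single library in 1 group. The number of calls changed with the library left out, over all tested genes as well as among the replication genes. It is therefore no measure of the replication genes alone.

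Old cells were compared with young cells in the second experiment, whose libraries are shared with none of the comparisons above. The genes that fell were 2 of licensing and Uhrf1 of methylation copying. Of the 39 genes 3 fell and 0 rose, against 3.42% and 4.42% of all tested genes that fell and rose. DESeq2 called 5 lower and 0 higher, against 4.31% and 5.41% of its genes, and 12 had an unadjusted p under 0.05, against 21.5% of all tested genes. The log2 fold change was below 0 for 33 genes (50.2% of all tested genes), with a median of -0.12, against -0.000692 over all tested genes. All old libraries lay below all young libraries for 15 genes, as they did for 13.2% of all tested genes.

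Uhrf1 had 165, 166 and 181 CPM in old cells, against 221, 228 and 225 CPM in young cells (log2 fold change -0.39 ± 0.05, adjusted p = 0.00147). Every old library was well below every young one, and the call held without any single library, with a highest adjusted p of 0.0164. Mcm4 had 139, 129 and 153 CPM in old cells, against 170.3, 169.9 and 169 CPM in young cells (log2 fold change -0.27 ± 0.06, adjusted p = 0.0274). Mcm7 had 179, 183 and 188 CPM in old cells, against 215, 214 and 207 CPM in young cells (log2 fold change -0.21 ± 0.05, adjusted p = 0.026). The groups did not overlap for either subunit, and the young libraries lay closer together than the old ones.

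Mcm2 had 148, 134 and 145 CPM in old cells, against 179, 173 and 154 CPM in young cells, just short of the threshold (log2 fold change -0.24 ± 0.07, adjusted p = 0.0514). Ccne1 had 15.5, 14.1 and 11.8 CPM in old cells, against 21.4, 18.96 and 16.6 CPM in young cells (log2 fold change -0.45 ± 0.13, adjusted p = 0.0533). Both were lower in every old library than in any young one. Summed over Mcm2 to Mcm7, the level was 1055, 1011 and 1107 CPM in old cells, against 1209, 1214 and 1172 CPM in young cells. Pcna had 225, 230.5 and 246 CPM in old cells, against 234, 234 and 217 CPM in young cells (log2 fold change 0.03 ± 0.06, adjusted p = 0.81). Rrm2 had 80.5, 83.3 and 76.4 CPM in old cells, against 77.8, 81.3 and 80.6 CPM in young cells (log2 fold change 0.00 ± 0.06, adjusted p = 0.985). Old and young libraries overlapped for these genes of the clamp and of nucleotide supply. Gins4 had the smallest p of the genes above 0, with 20.8, 21.4 and 24.5 CPM in old cells, against 21.6, 20.6 and 19.8 CPM in young cells (log2 fold change 0.10 ± 0.09, adjusted p = 0.596).

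All 10 licensing genes had a log2 fold change below 0 in old cells, with a median of -0.18 and 2 passing, and the 4 genes of G1/S control and methylation copying had a median of -0.28 with 1 passing. The medians of the other roles lay between -0.09 and -0.05. Of 39 further replication genes 2 fell and 0 rose, the fork protection partners Timeless (-0.33 ± 0.07) and Tipin (-0.28 ± 0.07). Of 13 chromatin assembly genes 3 fell and 0 rose, the assembly factor gene Chaf1b (-0.35 ± 0.07), Hells (-0.37 ± 0.09), which aids DNA methylation, and Nasp (-0.21 ± 0.05). In G1/S control the inhibitor genes Cdkn1b (0.24 ± 0.06) and Cdkn1a (0.41 ± 0.11) rose and Ccnd2 (-0.26 ± 0.06) fell, of 29. Of 35 mitosis genes Kif2c (0.31 ± 0.08) rose and 0 fell. None of 17 nucleotide supply genes passed, with 4 at an unadjusted p under 0.05, against 21.5% of all tested genes. Over all tested genes 4.42% rose and 3.42% fell, and the counts of the replication, G1/S control and mitosis lists lay near these shares.

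Among markers, 6 of the 7 tested lymphocyte and other blood cell genes rose in old cells, their sum being 201 to 217.5 CPM in old cells and 54.2 to 87.1 CPM in young cells. All 6 tuft cell markers fell, at 82.4 to 83.2 CPM in old cells against 157.7 to 194.7 CPM in young cells. Of 6 goblet cell markers 2 rose, Fcgbp (0.64 ± 0.07) and Tff3 (0.46 ± 0.09), and 1 fell, Clca1 (-1.17 ± 0.11), and their sum was 8265 to 8567 CPM in old cells and 6366 to 7603 CPM in young cells. Of 6 enteroendocrine markers 3 rose, at 290.0 to 419 CPM in old cells against 199 to 224 CPM in young cells. Of 6 Paneth cell markers 3 fell, among them Ang4 (-1.78 ± 0.09), while 2 had a log2 fold change above 0 (up to 0.285) without passing. The Paneth sums overlapped, as did those of the stem cell markers, of which 1 of 6 fell. Of 6 enterocyte markers 1 rose. Their part in the result was not tested. Without the first old library, the first young library or the second young library the count of fallen genes was 1, and Mcm4 passed in 1 of 6 such fits and Mcm7 in 3.

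**Figure D4:**
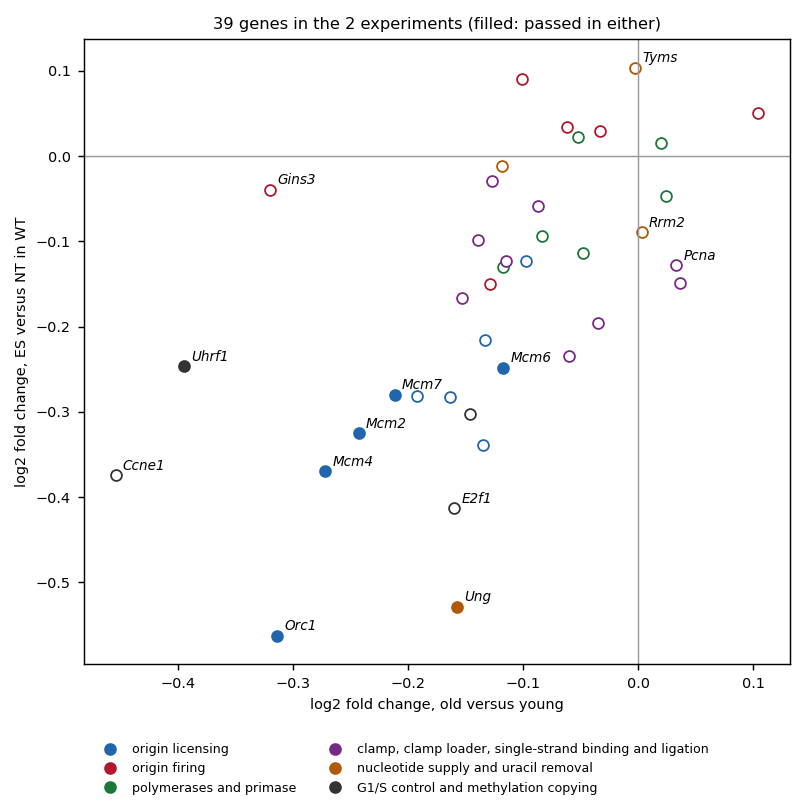
Each point is 1 of the 39 genes, coloured by role, with the log2 fold change of old against young on the x axis and of ES against NT in WT on the y axis. Filled points passed the test in either comparison. Most points lie in the lower left part, where Orc1, Ccne1 and Ung are farthest out, with Pcna and Rrm2 near 0 on the x axis.

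The ES comparison in WT and the age comparison use different libraries, so their values can be set side by side. The log2 fold change was below 0 in both for 28 of the 39 genes (71.8%), against 29.3% of 16506 genes tested in both tables. With ES in WT alone 32 of the 39 genes lay below 0, and with age alone 33. A large count below 0 in both follows from these, whatever the agreement between single genes. Across the 39 genes Pearson's r was 0.60 and Spearman's rho 0.67, against 0.05 and 0.14 across all genes. Genes are not independent replicates, and these genes share their position in the cell cycle, so the values are a description. Mcm4 and Mcm7 fell in both, which is 2 of the 6 genes that fell with ES and 2 of the 3 that fell with age. Uhrf1, the gene with the smallest p in old cells, missed the threshold with ES in WT, and Orc1 and Ung, with the largest falls in ES, had log2 fold changes of -0.31 ± 0.11 (adjusted p = 0.105) and -0.16 ± 0.08 (adjusted p = 0.288) with age. The 35 mitosis genes, of which 11 rose with ES in WT, had a median log2 fold change of 0.05 with age.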

How the data were processed

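RNA of sorted Lgr5-EGFP cells was made into strand-specific TruSeq libraries, per the labels' protocols. The deposited tables hold the authors' raw counts per gene, with no normalization. The submitters' processing notes name mm10 and FastQC 0.11.2, and the aligner and the counter were not given in the sources used here. Columns named Ctrl were read as NT. Gene positions and exon lengths are those of GENCODE release M21 on GRCm38, with the exons of all transcripts of a gene merged.

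The tables were tested separately with edgeR 4.0.16 in R 4.3.3: filterByExpr, TMM scaling, 1 mean per group, the quasi-likelihood test, and Benjamini-Hochberg adjustment over all tested genes. The 8 Chrm3 libraries shared 1 estimate of the spread. The standard error is the log2 fold change divided by the root of its F statistic. CPM are TMM-scaled. DESeq2 1.42.0 was used as an alternative, and the fit was tested on simulated data. No 2 libraries of a group agreed within sampling noise (chi-square per degree of freedom at least 3.59). Of the genes, 13 have exons overlapping another gene.

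The genes and lists were chosen with earlier results of these data known. The genes named per comparison are the 5 with the largest change among those that passed in each direction, or the one with the smallest p where none did, together with Mcm2, Pcna, Ccne1, Rrm2 and Uhrf1, and up to 3 per related list by p. Mcm6, Mcm3, Mcm5, Cdt1, Cdc6, E2f1 and the further genes that passed were added after their values were seen. A gene of the related lists that the rule takes is not reported here. Protein sequences were not used here.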

Additional observations from a re-analysis of the deposited data

How the results depend on the processing

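Each gene that passed kept its sign in all 246 refits, which reuse these same libraries. In many refits the gene no longer passed, more often where a library was left out than under the other settings. Of 258 counts and medians over the 39 genes under an alternative, 222 stayed within set limits and 36 moved. A count that changed to or from 0 was taken as moved. Many of the 222 were counts of 0 that stayed 0, so this share does not describe how stable the calls were. Without a filter on low counts, which adds genes to the adjustment, 0 genes fell with ES in WT, 0 rose in KO NT and 2 rose in KO ES. DESeq2 gave 11 lower with ES in WT, 1 lower in KO NT, 11 higher in KO ES and 5 lower in old cells. Fitting only the groups compared gave 12 lower with ES in WT and 2 higher in KO NT. Over all tested genes this fit gave 1875 calls against 605 for ES in WT, and 592 against 776 for KO in NT. Robust estimation of the spread, chosen after seeing the data, gave 5 lower in old cells. The cause of these differences was not tested.

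Leaving out each library in turn gave 1 to 4 replication genes lower in old cells. Calls over all tested genes, in either direction, numbered 636 to 1485 in these age fits. In the Chrm3 experiment each such fit leaves a single library in 1 group. There the number of calls changed with the library left out, both among the replication genes and over all tested genes. The median log2 fold change ranged over -0.11 to -0.0207 for ES in KO, 0.174 to 0.254 for KO in ES and 0.0322 to 0.125 for the difference, and kept its sign in the other comparisons. Whether the replicate numbers pair the samples was not settled. Correlations of deviations were -0.00832 to 0.103 in the Chrm3 experiment. There the 2 deviations of a group mirror each other, so these values cannot decide on pairing. Of the ageing libraries, 4 of 6 correlated best with their own number. With the replicate number as a block 9 genes fell with ES in WT, 6 rose in KO NT, 13 rose in KO ES and 6 fell in old cells. The block also raised the calls over all tested genes, in either direction, from 776 to 998 for KO in NT and from 1312 to 1758 for KO in ES. Calls over all tested genes numbered 605 for ES in WT (114 without the filter, 1043 by DESeq2, 970 with the block and 1875 with only those groups), 89 for ES in KO (8, 226, 206 and 24 in the same order) and 19 for the difference (0, 211 and 104, and 11 by the older form of the test, chosen after seeing the data). Without the filter they numbered 317 against 776 for KO in NT, 593 against 1312 for KO in ES and 666 against 1318 in old cells, where the block gave 2019.

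Summing several entries of 1 symbol was not run because no gene had more than 1.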

Other observations

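Replication-dependent histone genes, whose transcripts mostly lack the poly(A) tail that these libraries select, were tested for 50 of 70 listed genes in the Chrm3 experiment and 43 in the ageing experiment. With ES in WT none passed by edgeR's quasi-likelihood test and 5 had an unadjusted p under 0.05, against 18.6% of all tested genes. The median log2 fold change was 0.13, with 28 genes above 0 and 22 below, over a range of -1.18 to 3.59. Their summed level overlapped, at 112 and 128 CPM in WT ES against 120 and 122 CPM in WT NT. In old cells the median was 0.26, with 27 genes above 0 and 16 below. The sum was 136, 129 and 118 CPM in old cells, against 101, 110 and 106 CPM in young cells. In KO NT 1 of 50 fell and 0 rose, against 2.11% and 2.36% of all tested genes, and in old cells 1 of 43 rose and 0 fell, against 4.42% and 3.42%. These were Hist1h2bc in KO NT (-0.38 ± 0.08, adjusted p = 0.0304) and Hist1h1c, a linker histone gene, in old cells (0.51 ± 0.11, adjusted p = 0.0171).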
